A study of Rattus norvegicus with 144 samples.

Results

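The comparison described here is that of nicotine with saline in the HIP (dorsal hippocampus) of F344 rats. It comprised the 24 libraries labelled F344 and HIP, 12 F344_Nic and 12 F344_Sal, out of 144 libraries in the series. The series also covers the prefrontal cortex (PFC) and dorsal striatum (STR), and the HIV-1Tg rat, a transgenic strain on the F344 background that carries a noninfectious form of the HIV-1 genome. F344 is an inbred laboratory strain and carries no HIV-1 transgene. The F344_Nic rats were injected under the skin with a 0.25 mg/ml nicotine solution, 1 ml/kg at each of 2 injections per day over 17 days, and the F344_Sal rats were injected with saline. The HIV_Nic and HIV_Sal rats, used for comparison, had the same treatments. All animals were adult males that had served in an earlier behavioral study, so both groups share that history, and the tissue of each rat was taken with a punch that holds all cell types of the region. In such tissue, fewer cells of a type and less RNA per cell cannot be told apart.

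Nicotine acts on nicotinic acetylcholine receptors, cation channels that open on binding acetylcholine. In the hippocampus these receptors sit on inhibitory and excitatory neurons and on axon terminals, where calcium entry can promote transmitter release and can lead, through calmodulin, cAMP, and protein kinases, to phosphorylation of the transcription factor CREB. Repeated exposure is known to change receptor number and hippocampus-dependent learning.

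The values are FPKM, fragment numbers scaled by transcript length and by the mapped fragments of the library, so that levels can be compared between transcripts. Testing required more than 0.01 FPKM in 6 or more rats of each group of 12, and 15022 of 39106 annotated transcripts, from 14137 genes, passed. Transcripts were called where limma gave p under 0.05 before adjustment and the groups differed by over 1.2-fold. By this rule 841 transcripts were called, 5.60% of those tested, of which 361 (2.40%) were higher and 480 (3.20%) were lower in F344_Nic than in F344_Sal rats. Without the limit on fold change there were 995 (6.62%). With limma's p-values adjusted by the Benjamini-Hochberg method across the 15022 transcripts, 1 transcript passed (0.00666%), and it was lower in the F344_Nic rats. With values close to 0 and outliers removed, limma called 1713 transcripts and 93 passed adjustment, 32 of them higher. For no transcript were all 12 rats of one group above or below all 12 of the other (0%). The median log2 fold change of all transcripts tested was -0.03. With each library scaled to a common median, 422 were higher and 391 lower, so the excess of lower transcripts depended on scaling.

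**Figure D1:**
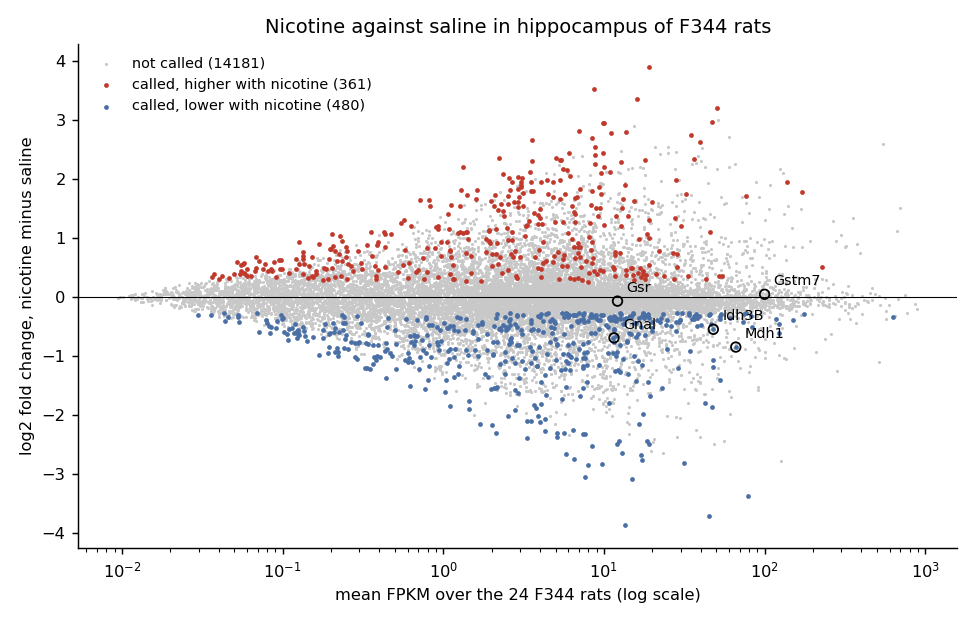
Log2 fold change of each of the 15022 transcripts tested (vertical axis) against its mean FPKM over the 24 rats (horizontal axis, log scale). Red and blue points are the 361 transcripts called higher and the 480 called lower with nicotine, and circles mark transcripts linked to 5 genes, of which Idh3B and Mdh1 were called.

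The called transcripts came from all levels of expression. Between 1 and 10 FPKM, 391 of 6672 transcripts were called, 179 higher and 212 lower. Between 10 and 100 FPKM, 193 of 3756 were called, and here the lower transcripts were 130 against 63 higher. Among the 292 most abundant transcripts, with means over 100 FPKM, 9 were called. The median size of the change among called transcripts was 0.73 on the log2 scale, and 291 changed by more than 2-fold, 153 of them higher and 138 lower. A rat at or under 0.01 FPKM was found for 454 of the 841 called transcripts (53.98%), and for 8117 of the 15022 tested (54.03%). The called transcripts came from 837 genes, and 1 gene had both a higher and a lower one.

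Some libraries of the F344_Sal group stood apart. Base coverage divided by FPKM, a relative measure of how deeply a library was sequenced, was 1.64 to 1.82 in F344_Sal rats 8 to 12, 2.03 to 2.49 in F344_Sal rats 1 to 7, and 2.02 to 2.44 in the F344_Nic rats. On the first principal component, F344_Sal rats 10, 8, and 3 had scores of 147, 60.5, and 28.2, whereas the F344_Nic rats lay between -25.42 and -1.34. Without F344_Sal rats 3, 8, and 10, 613 transcripts were called, 311 higher and 302 lower, and 408 of these were among the 841. Without F344_Sal rats 8 to 12, 623 were called, 299 higher and 324 lower, and 345 of these were among the 841. None passed the adjusted threshold in either case with limma, where 666 and 671 had an unadjusted p under 0.05. The part of depth in the calls was not tested beyond these counts. Leaving out any 1 F344 rat alone kept 73.1% to 84.5% of the 841 calls. No other sets of F344_Sal rats were left out, so calls lost with these libraries cannot be told from calls lost to fewer rats.

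**Figure D2:**
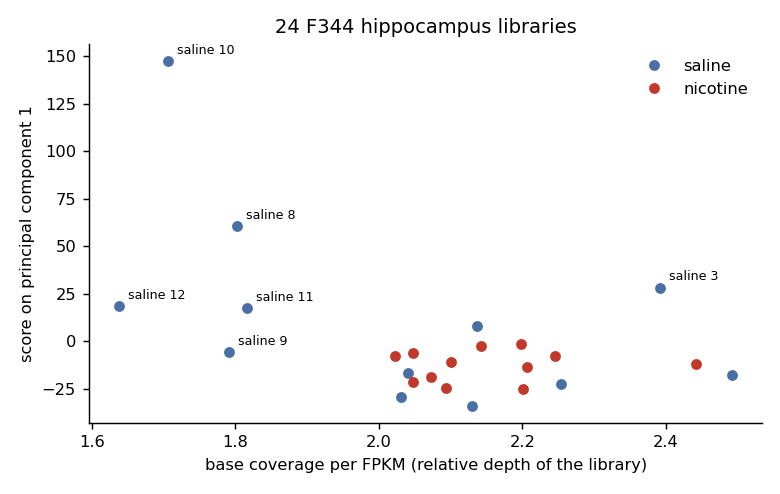
The 24 F344 HIP libraries by relative depth (base coverage per FPKM, horizontal axis) and score on the first principal component of log2(FPKM + 0.1) (vertical axis). Blue points are F344_Sal and red points F344_Nic rats, and F344_Sal rats 8 to 12 lie below all other libraries in depth.

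The files list transcripts by Ensembl identifier without gene names. Of the transcripts called, the 2 higher and the 2 lower ones with the smallest p among those with a mean of at least 1 FPKM are described first. Being chosen by p in this comparison, their fold changes are a description of it. The transcript ENSRNOT00000067592 had 11.3, 14.4, and 15.2 FPKM (lowest, median, and highest rat) in F344_Nic and 13.58, 19.5, and 27.9 FPKM in F344_Sal rats. All but 1 of the F344_Sal rats lay above the highest F344_Nic rat. Its log2 fold change was -0.51 ± 0.09 (SE, 12 rats per group) and its adjusted p, by limma, was 0.0343. This is the transcript past the adjusted threshold, and it passed in 10 of 15 alternatives and in 12 of the 24 fits that each left out 1 rat. It did not pass without F344_Nic rat 3, 4, 6, 9, or 12 or F344_Sal rat 3, 5, 7, 8, 9, 11, or 12, where the adjusted p ranged from 0.0502 to 0.119. Its values in F344_Sal rats 8, 9, and 12, all of low depth, were the 3 highest of the group, and without F344_Sal rats 8 to 12 its log2 fold change was -0.31 (p = 0.00133 by limma).

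The transcript ENSRNOT00000029141 had 8.42, 10.2, and 11.7 FPKM in F344_Nic and 10.8, 13.39, and 16.1 FPKM in F344_Sal rats. All 12 F344_Nic rats lay below the F344_Sal median, and 10 F344_Sal rats lay above every F344_Nic rat. Its log2 fold change was -0.35 ± 0.08 (adjusted p = 0.124 by limma). Without F344_Sal rats 8 to 12 it was -0.26 (p = 0.00503 by limma), under the 1.2-fold limit for calls. Of the higher transcripts, ENSRNOT00000005818 had 0.855, 1.34, and 2.12 FPKM in F344_Nic and 0.734, 0.883, and 1.11 FPKM in F344_Sal rats. F344_Nic rats 2 to 7 lay above every F344_Sal rat, and the other 6 lay within the F344_Sal range. Its log2 fold change was 0.55 ± 0.14 (adjusted p = 0.278 by limma). ENSRNOT00000020089 had 8.51, 10.3, and 13.43 FPKM in F344_Nic and 1.92, 8.19, and 11.3 FPKM in F344_Sal rats, and 7 F344_Sal rats lay below every F344_Nic rat. Its log2 fold change was 0.66 ± 0.18 (adjusted p = 0.299 by limma).

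**Figure D3:**
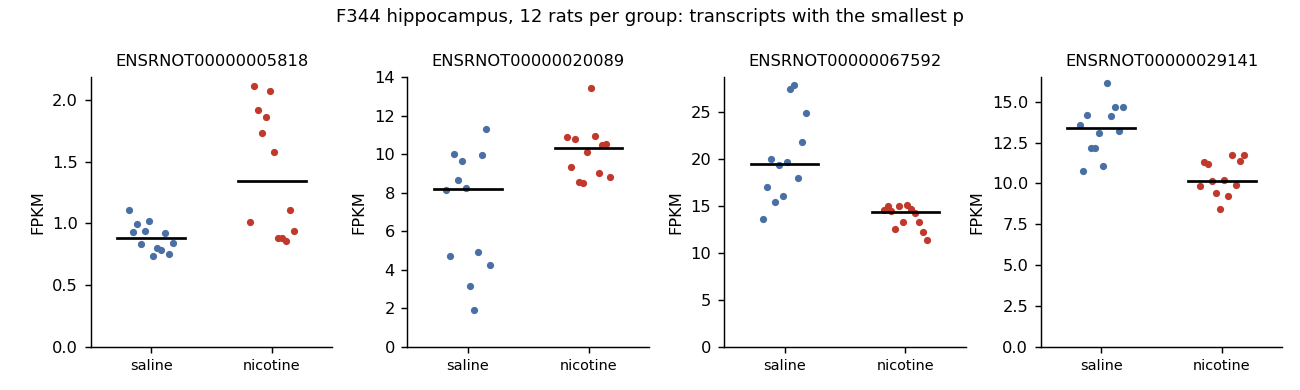
FPKM (vertical axis, from 0) of the 2 higher and 2 lower transcripts with the smallest p, with 1 point for each of 12 F344_Sal (blue) and 12 F344_Nic (red) rats and a bar at the median. The groups overlap in each panel, least for ENSRNOT00000067592, where 11 of 12 saline rats lie above the highest nicotine rat.

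Gene names could be given to transcripts of 25 genes, by a link described with the processing. The study had picked them on these samples, 10 from its HIP results and 15 from its PFC or STR results, as genes that differed between the saline groups of the 2 strains and changed with nicotine in HIV-1Tg rats. They are therefore no independent list. They have 39 annotated transcripts, of which 28, from 23 genes, were tested in the F344 HIP. Of these 28, 0 were higher and 2 were lower by the rule for calls (5.60% of all transcripts tested were called), 0 had an adjusted p under 0.05, and the median log2 fold change was -0.06. The called transcripts were those of Idh3B and Mdh1. Both come from a tricarboxylic acid cycle set that the study formed in the STR, so their shared pathway is no result of this comparison. Ndufs4 and Plaa of that set were not called.

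Idh3B encodes the beta subunit of the NAD-dependent isocitrate dehydrogenase of mitochondria. Its transcript, ENSRNOT00000009681, had 21.4, 35.5, and 61.8 FPKM in F344_Nic and 28.1, 61.6, and 101.6 FPKM in F344_Sal rats. In all but 1 of the F344_Nic rats the level was under the F344_Sal median, and 5 F344_Sal rats exceeded every F344_Nic rat, although the ranges overlapped broadly. The log2 fold change was -0.54 ± 0.23 (SE, p = 0.0197, adjusted p = 0.698 by limma), a level 0.686 times that of saline. It held with any 1 rat left out, with log2 fold changes of -0.62 to -0.46. F344_Sal rats 10 and 12, whose depth was low, had the 2 highest levels, 101.6 and 93.5 FPKM. Without F344_Sal rats 8 to 12 the log2 fold change was -0.24 (p = 0.35 by limma), and without F344_Sal rats 3, 8, and 10 it was -0.35 (p = 0.144 by limma).

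Mdh1 encodes the cytosolic malate dehydrogenase of the malate-aspartate shuttle. Its transcript, ENSRNOT00000011429, had 27.1, 36.8, and 40.8 FPKM in F344_Nic and 28.1, 39.7, and 310 FPKM in F344_Sal rats. The medians differed little, and F344_Sal rats 3, 10, and 11, at 292, 310, and 219 FPKM, stood far above the other F344_Sal rats, which lay between 28.1 and 52.4 FPKM. The log2 fold change was -0.85 ± 0.31 (p = 0.00969, adjusted p = 0.678 by limma), and it ranged from -0.95 to -0.64 with any 1 rat left out. It was -0.37 (p = 0.158 by limma) without F344_Sal rats 3, 8, and 10, and -0.49 (p = 0.108 by limma) without F344_Sal rats 8 to 12. Ndufs4, which encodes a subunit of complex I of the respiratory chain, had medians of 80.3 FPKM in F344_Nic and 82.8 FPKM in F344_Sal rats and a log2 fold change of 0.04 ± 0.71 (p = 0.952 by limma). Its levels ran from 8.63 to 91.8 and from 8.58 to 105 FPKM in the 2 groups.

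Among genes of signaling toward CREB, Gnal encodes the alpha subunit of Golf, a G protein that stimulates adenylyl cyclase. Its linked transcript, ENSRNOT00000013958, had 3.34, 10.4, and 16.3 FPKM in F344_Nic and 7.19, 12.0, and 36.8 FPKM in F344_Sal rats. In 5 F344_Nic rats (1, 4, 9, 11, and 12) the level was lower than in every F344_Sal rat, and F344_Sal rats 6 and 10 exceeded every F344_Nic rat. The log2 fold change was -0.69 ± 0.47 (p = 0.148 by limma). The other annotated transcript of the gene, ENSRNOT00000025172, had a log2 fold change of -0.64 ± 0.48 (p = 0.188 by limma), with medians of 10.5 and 13.8 FPKM. With the FPKM of both summed, the log2 fold change was -0.67 (p = 0.0183, adjusted p = 0.691 by limma), which passed the rule for calls. With only the 24 F344 HIP libraries in the fit, both transcripts also passed it, at p = 0.0196 and p = 0.0489 by limma.

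Ntrk2, which encodes the BDNF receptor TrkB, had medians of 51.3 FPKM in F344_Nic and 46.2 FPKM in F344_Sal rats for its linked transcript, with 1 rat of each group listed at 0. Its log2 fold change was 0.07 ± 1.02 (p = 0.942 by limma), an error larger than the estimate. Polr2c, which encodes a subunit of RNA polymerase II, had medians of 22.2 and 21.1 FPKM and a log2 fold change of 0.18 ± 0.58 (p = 0.753 by limma). In both groups its levels were spread from near 2 to near 27 FPKM.

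Cabp1 encodes a neuronal calcium-binding protein related to calmodulin, and Calm3 encodes calmodulin itself. The rows linked to these genes in the HIP tables are not annotated transcripts but assembled ones, lying in an intron of Cabp1 and sharing a splice junction with Calm3, and not every rat has a value. The intronic Cabp1 row had 6.78, 9.32, and 14.2 FPKM in 9 F344_Nic rats and 6.57, 12.996, and 18.1 FPKM in 8 F344_Sal rats. Its difference, on the log2(FPKM + 0.1) scale, was -0.36 (exact two-sided permutation test, p = 0.0588, adjusted p = 0.118 over the 2 assembled rows). With 1 rat left out the difference was -0.49 to -0.28, with p from 0.00332 without F344_Sal rat 5, which was below every F344_Nic rat, to 0.12, and p was 0.0242 without F344_Nic rat 3 (exact permutation tests). The annotated Cabp1 transcript ENSRNOT00000001551, at 20.7 and 23.44 FPKM in the median rat, had a log2 fold change of -0.05 ± 0.13 (p = 0.686 by limma). The other tested one, ENSRNOT00000039281, had medians of 8.44 and 15.4 FPKM, with 11 F344_Nic rats below the F344_Sal median, and a log2 fold change of -1.57 ± 1.18 (p = 0.191 by limma), which was -0.61 (p = 0.02 by limma) with values close to 0 and outliers removed. It was listed at or under 0.01 FPKM in 4 F344_Nic and 2 F344_Sal rats. With the annotated transcripts of Cabp1 summed, the log2 fold change was -0.33 (p = 0.0576 by limma). For the assembled Calm3 row the medians were 520 FPKM in 10 F344_Nic rats and 503 FPKM in 7 F344_Sal rats, and the difference was 0.16 (exact two-sided permutation test, p = 0.466), which ranged from -0.0199 without F344_Sal rat 9 to 0.25 without F344_Sal rat 8. The annotated Calm3 transcript was at or under 0.01 FPKM in 10 F344_Nic and 7 F344_Sal rats and was not tested.

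Gsr and Gstm7 act on glutathione, the main soluble antioxidant of cells. Gsr, the glutathione reductase, had 8.83, 11.6, and 14.5 FPKM in F344_Nic and 8.89, 13.50, and 14.4 FPKM in F344_Sal rats, and the ranges were nearly the same. The log2 fold change was -0.07 ± 0.09 (p = 0.449 by limma), among the smallest errors of the linked genes. Gstm7, a glutathione S-transferase of the mu class, was the most abundant of the annotated linked transcripts in the median F344_Nic rat, at 106 FPKM, against 109 FPKM in the median F344_Sal rat, and its log2 fold change was 0.05 ± 0.17 (p = 0.778 by limma). Cflar, a caspase-8 inhibitor, had medians of 2.06 and 2.12 FPKM and a log2 fold change of 0.09 ± 0.32 (p = 0.775 by limma). Plch1, a phospholipase C, was low in level, with medians of 0.462 and 0.414 FPKM and 1 rat of each group at or under 0.01 FPKM. Its log2 fold change was -0.18 ± 0.42 (p = 0.666 by limma), and its other tested transcript, ENSRNOT00000013280, had -0.03 ± 0.55 (p = 0.957 by limma). Igbp1, which encodes a regulatory partner of protein phosphatase 2A, had medians of 1.40 and 1.54 FPKM and a log2 fold change of -0.19 ± 0.53 (p = 0.727 by limma). F344_Nic rats 3 and 11 and F344_Sal rats 1 and 8 were between 12.1 and 14.2 FPKM, F344_Nic rats 1 and 9 and F344_Sal rats 10 and 11 were between 3.08 and 5.55 FPKM, and the remaining rats of both groups were under 2 FPKM.

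**Figure D4:**
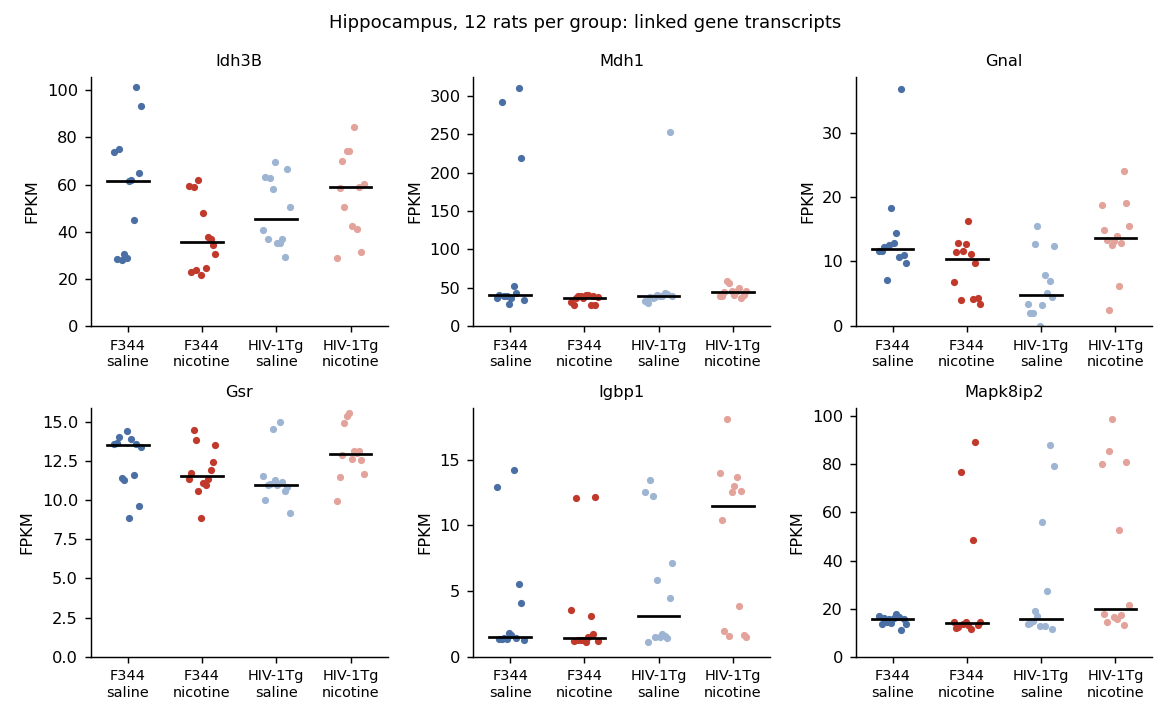
FPKM (vertical axis, from 0) of the linked transcripts of 6 genes in the HIP, with 1 point for each of 12 rats in F344_Sal, F344_Nic, HIV_Sal, and HIV_Nic groups and a bar at the median. In Mdh1 3 F344_Sal rats lie at 219 FPKM or above. In Igbp1, and in Mapk8ip2 in all groups but F344_Sal, some rats lie far above others. For Igbp1 the HIV_Nic median, 11.5 FPKM, is itself among the high levels.

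Genes linked by their values in the PFC were also measured in the HIP. Wnt5a, a secreted Wnt ligand, had medians of 0.833 and 0.931 FPKM in F344_Nic and F344_Sal rats and a log2 fold change of -0.04 ± 0.26 (p = 0.883 by limma). Axin1, a scaffold of the complex that degrades beta-catenin, had -0.55 ± 0.75 (p = 0.467 by limma) for its linked transcript, called only with values close to 0 and outliers removed (-0.60, p = 0.0184 by limma), and 0.30 ± 0.81 (p = 0.714 by limma) for the other tested one, ENSRNOT00000048663. Gnao1, the alpha subunit of the G protein Go, which is abundant in neurons, had medians of 43.3 and 49.0 FPKM and 0.64 ± 0.88 (p = 0.471 by limma) on the log2 scale, where 1 F344_Nic and 2 F344_Sal rats were listed at 0. With outliers and values close to 0 removed it was -0.26 (p = 0.00118 by limma), in the other direction and under the 1.2-fold limit for calls, and its other tested transcript, ENSRNOT00000026429, had 0.07 ± 1.42 (p = 0.962 by limma). The growth factor Fgf9 had a log2 fold change of -0.22 ± 0.34 (p = 0.524 by limma). The ephrin receptor Ephb1 was among the steadiest transcripts of the linked genes. It had 6.46, 7.77, and 9.07 FPKM in F344_Nic and 6.50, 7.55, and 12.6 FPKM in F344_Sal rats, and its log2 fold change was 0.00 ± 0.10 (p = 0.998 by limma). Mapk8ip2, a scaffold protein of the JNK pathway, had similar medians, 14.0 and 15.7 FPKM, but F344_Nic rats 4, 9, and 10 had 76.6, 48.6, and 89.4 FPKM, above every F344_Sal rat. Its log2 fold change was 0.41 ± 0.39 (p = 0.298 by limma). The row linked to Wnt7a, another Wnt ligand, is an assembled transcript too, and the annotated one was at or under 0.01 FPKM in 10 rats of each group and was not tested.

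Of the genes linked in the STR that take part in calcium and lipid signaling, none was called, where 5.60% of all transcripts tested were. They are too few for this to be a result about such signaling. The log2 fold changes were -0.45 ± 0.71 for Chp, a calcium-binding protein that interacts with calcineurin (p = 0.526 by limma), -0.30 ± 0.29 for the annotated transcript of Letm1, a protein of the inner mitochondrial membrane (p = 0.313 by limma), and -0.32 ± 0.28 for Plaa, a phospholipase A2 activating protein (p = 0.252 by limma). Rap1b, a small GTPase, had medians of 25.36 FPKM in 9 F344_Nic and 24.6 FPKM in 11 F344_Sal rats with a value, and its log2 fold change was -0.41 ± 0.30 (p = 0.186 by limma). The row linked to Letm1 in the STR is an assembled transcript in an intron of the gene and is not the one given here. LOC366431 had -0.01 ± 0.32 (p = 0.968 by limma).

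The same treatment was compared in the HIV-1Tg HIP, whose samples are separate from those above. There, 683 of 14967 transcripts (4.56%) were called, 417 higher (2.79%) and 266 lower (1.78%). Limma called 0 after adjustment, whereas 895 (5.98%) had p under 0.05 before it. The calls of both strains shared 40 transcripts, 4.76% of the F344 calls and 5.86% of the HIV-1Tg calls, 19 in the same and 21 in the opposite direction. Of the 841 F344 calls, 826 were tested in the HIV-1Tg rats and 4.84% of these were called there, against 4.56% of all transcripts. The difference of the nicotine effects between strains had an unadjusted p under 0.05 for 1102 of 14087 transcripts (7.82%), and 965 of these (6.85%) also differed by more than 1.2-fold. In 652 (4.63%) the F344 effect was the lower, and in 313 (2.22%) the higher. After adjustment limma called 0, and it called 59 where outliers had been removed.

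Of the 23 linked genes with a transcript tested in the F344 HIP, 3 had an annotated transcript whose nicotine effect differed between strains at an unadjusted p under 0.05. For each the F344 effect was the lower. Such a p was found for 7.82% of all transcripts tested for the difference. The F344 effect was the lower in 652 of the 965 of these that also differed by more than 1.2-fold. For Gnal, ENSRNOT00000013958, the log2 fold change was -0.69 ± 0.47 in F344 and 1.64 ± 0.47 in HIV-1Tg rats, and the difference was -2.33 ± 0.66 (p = 0.00102, adjusted p = 0.464 by limma). The median level rose from 4.82 FPKM in HIV_Sal to 13.7 FPKM in HIV_Nic rats. For Gsr the values were -0.07 ± 0.09 and 0.19 ± 0.09, with a difference of -0.26 ± 0.12 (p = 0.0424, adjusted p = 0.624 by limma), which did not keep p under 0.05 in 6 of 11 alternatives or without any 1 of 13 libraries. For Idh3B they were -0.54 ± 0.23 and 0.19 ± 0.23, with a difference of -0.74 ± 0.32 (p = 0.025, adjusted p = 0.588 by limma), and -0.43 (p = 0.2 by limma) without F344_Sal rats 8 to 12. Mdh1 had an effect of 0.01 ± 0.31 in HIV-1Tg rats, and the difference from F344 was -0.85 ± 0.44 (p = 0.0604 by limma). The intronic Cabp1 row, whose difference between strains was not tested, was -0.36 in F344 and 0.40 in HIV-1Tg rats, with values in 6 HIV_Nic and 8 HIV_Sal rats. Since Cabp1, Gnal, and Gsr were chosen by the study for a response in the HIV-1Tg HIP, their values there and these differences are not independent evidence.

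**Figure D5:**
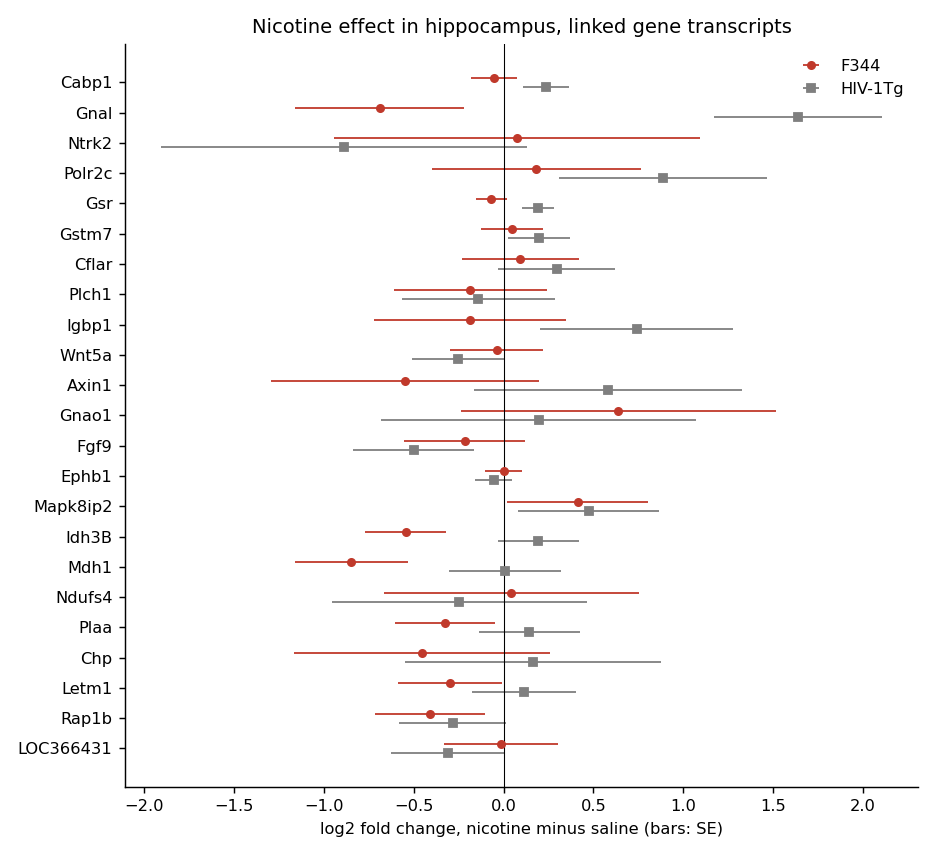
Log2 fold change of nicotine against saline (horizontal axis) with its SE (bars) for 1 transcript of each of 23 linked genes in the HIP, in F344 (red circles) and HIV-1Tg rats (grey squares), with 12 rats per group except for Rap1b, which lacks values in some rats. Idh3B and Mdh1 lie furthest below 0 relative to their error in F344, and Gnal lies on opposite sides of 0 in the 2 strains.

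Nicotine was also compared with saline in the PFC and STR of F344 rats. In the STR, 585 of 14997 transcripts (3.90%) were called. Of the 795 HIP calls tested there, 45 were called too, which is 5.35% of the HIP calls and 7.69% of the STR calls, and 28 of them had the same direction. In the PFC, 1525 of 14583 transcripts (10.5%) were called, and 754 (5.17%) passed the adjusted threshold. Of the 769 HIP calls tested there, 133 (17.3%) were called too, which is 15.8% of the HIP calls and 8.72% of the PFC calls, and 106 of them had the same direction. In the PFC, however, 10 of the 12 F344_Nic libraries lay apart from the other 14 libraries on the first principal component, at 41.5 to 62.1 against at most -21.9, and whether this arises from nicotine or from the handling of those libraries cannot be told apart. Per the study, tissue of all regions was taken from each brain, so the libraries of the 3 regions share animals, but the labels do not say which. The tests of differences between regions treat these libraries as independent, and their p-values do not allow for the shared animals.

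The difference of the effects between HIP and STR had an unadjusted p under 0.05 for 630 of 13605 transcripts (4.63%), and 1 passed the adjusted threshold (0.00735%). Between HIP and PFC the numbers were 1390 of 13254 (10.5%) and 560 (4.23%). For ENSRNOT00000029141 the log2 fold change was -0.35 ± 0.08 in the HIP, -2.08 ± 0.23 in the PFC, and -0.11 ± 0.07 in the STR, and the difference of HIP and PFC had an adjusted p of 2.31e-07 by limma. For ENSRNOT00000067592 it was -0.51 ± 0.09, -1.004 ± 0.17, and -0.12 ± 0.42. For Idh3B it was -0.54 ± 0.23, -0.20 ± 0.22, and -0.53 ± 0.21, and the HIP and STR effects differed by -0.01 (p = 0.97 by limma). This p does not show that the effects are equal. The study chose Idh3B on the STR samples, and its HIP effect was -0.24 without F344_Sal rats 8 to 12. For Mdh1 the effect was lower in the HIP (-0.85 ± 0.31) and higher in the PFC (1.1699 ± 0.40), a difference of -2.02 (p = 0.00268, adjusted p = 0.0618 by limma).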

How the data were processed

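RNA from the 24 F344 HIP samples was sequenced by the authors with paired-end reads, aligned to the rat genome Rn4 with TopHat and Bowtie (version 1.04 in the submitters' processing notes), and quantified as FPKM with Cufflinks. The deposited tables pack the FPKM of each transcript with other fields, including base coverage, in 1 cell per sample. Rows that match the Ensembl annotation exactly were kept. In 511 of these rows some cells hold several entries, whose FPKM were summed. The tables hold no read counts, so only relative depth is known and no counting error can be given. No sample column was left unused.

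Transcripts were fitted on the log2(FPKM + 0.1) scale by limma 3.58.1 (R 4.3.3) with a trended prior and the 4 HIP groups (48 samples) in 1 fit. A fold change is on the log2(FPKM + 0.1) scale and understates the change of low transcripts. Regions were compared in a fit of 72 F344 samples in 6 groups, taken as independent although the regions come from the same brains. Per the study, each library of a region is a separate rat. No library was a copy of another: the highest correlation between 2 of them was 0.80. Replicate numbers do not pair the samples. The fit was tested on simulated data for this comparison with 14964 transcripts: of 100 changed by 0.5 on the log2 scale 53% were called and 28% passed adjustment, and of 100 changed by 1, 73% and 48%. Of the unchanged transcripts 4.59% were called and 5 passed adjustment. The simulated log2 values were normal, with 1 spread per transcript for all 4 groups, and the changed transcripts were drawn only from the more abundant ones. Unlike the data, they held no outlying libraries and no transcripts split into low and high rats. These shares therefore need not hold for the data.

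The 25 gene names come from 26 sets of group means and SEMs printed in the study. For each set, 1 row of its region's table gave all numbers compared within 0.0051, as geometric means and SEMs on the log2 scale, with values under 0.01 and up to 6 extreme rats per group left out, and 0 rows of the other regions did. For Igbp1 and LOC366431 the F344_Nic numbers were not compared. This gives identity only, and it is the only check of the HIP label: marker genes were not analysed here, nor were nicotinic receptors, since the files pair no identifiers with symbols. The transcripts named were the 2 higher and 2 lower with the smallest p among called transcripts of at least 1 FPKM, and genes linked in the HIP. Genes linked in the PFC and STR were added after the data were examined. The members, rules, and lists were chosen with earlier results of these data known. The 13 planned and 3 added alternatives are pseudocounts, filters, removal of outliers beyond an assumed 1.5 interquartile ranges with limma or with ANOVA and Tukey-Kramer tests, scaling, sample sets, weights, a replicate block, sums per gene, and libraries left out. Packages for tests and plots were SciPy 1.17.1, NumPy 2.4.6, and matplotlib 3.10.9.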

Additional observations from a re-analysis of the deposited data

Results flagged for a closer look

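The nicotine effects of the 2 strains differed, by the test of the difference itself at an unadjusted p under 0.05, for 4 transcripts of linked genes, both Gnal transcripts among them, and for the 4 transcripts chosen by p. None of these passed adjustment at the settings of the report. Over all transcripts, 1102 of the 14087 tested for the difference (7.82%) had such a p. The F344 effect minus the HIV-1Tg effect was -2.33 for Gnal ENSRNOT00000013958, -1.37 for Gnal ENSRNOT00000025172 (p = 0.0493 by limma), -0.26 for Gsr, and -0.74 for Idh3B. It was 0.54 for ENSRNOT00000005818 (p = 0.00889 by limma), 0.96 for ENSRNOT00000020089 (p = 0.000366 by limma), -0.37 for ENSRNOT00000067592 (p = 0.00805 by limma), and -0.40 for ENSRNOT00000029141 (p = 0.000616 by limma), but the last 4 had been chosen for their effect in F344, which is one side of the difference. The second Gnal transcript lost this p without any 1 of 14 libraries, and Gsr without any 1 of 13. Over 11 alternatives the former lost it in 5 (p = 0.0523 to 0.0756 by limma) and Gsr in 6 (p = 0.0553 to 0.123 by limma), the replicate block among the latter. Without F344_Sal rats 8 to 12 the difference was -0.17 for ENSRNOT00000067592 (p = 0.154 by limma) and -0.43 for Idh3B (p = 0.2 by limma). For Gnal ENSRNOT00000013958 it lay between -2.63 and -1.87 in 11 alternatives and kept p under 0.05 in each of them and without any 1 library of the F344 groups, with an adjusted p of 0.0331 by limma where outliers had been removed. Of the HIV-1Tg libraries only HIV_Nic rat 4 was left out, and 1 HIV_Sal rat was listed at 0 for this transcript. The study had chosen Gnal and Gsr on these HIP samples, so their differences are not independent evidence. Idh3B was chosen on the STR samples, which share animals with the HIP.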

How the results depend on the processing

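The count of 841 changed transcripts ranged from 731 (without F344_Sal rat 8) to 876 (without F344_Sal rat 5) with 1 library left out, and it was 1512 with no filter (28426 transcripts tested), 1713 with values close to 0 and outliers removed and limma, and 676 with the same values and ANOVA. The count past adjustment was 0 to 3 with 1 library left out, 2 with no filter, 93 and 7 with outliers removed and limma or ANOVA, and 0 with median scaling, with only the 24 samples, with the replicate block, and without F344_Sal rats 3, 8, and 10 or 8 to 12, where the cause was not tested. The count of differences between strains (1102) ranged from 959 to 1126 with 1 F344 library left out, and was 916 without HIV_Nic rat 4. It was 1747 with no filter, 2155 with outliers removed, 823 without F344_Sal rats 3, 8, and 10, and 913 without rats 8 to 12. Differences past adjustment were 59 with outliers removed, 1 without F344_Sal rat 4, 1 without F344_Sal rat 7, and 0 in the other settings. The replicate block gave 833 calls, of 12 same-number pairs 0 had a correlation over 0.1 (-0.03 to 0.03), and 2 F344_Nic rats correlated best with their own number. With outliers removed, limma also called Axin1 ENSRNOT00000027705 (-0.60, p = 0.0184), Cabp1 ENSRNOT00000039281 (-0.61, p = 0.02), and Gnal ENSRNOT00000025172 (-0.64, p = 0.0339), whereas ANOVA did not call Idh3B (p = 0.0944) or Mdh1 (p = 0.165). Some log2 fold changes, none of them called at the settings of the report, turned in sign. They were -0.00088 for Ephb1 with pseudocount 1, 0.0109 for LOC366431 with median scaling, and 0.16 for Axin1 with FPKM summed per gene. With outliers removed, for limma and ANOVA alike, they were -0.0693 for Ntrk2, -0.26 for Gnao1 (p = 0.00118 by limma and p = 0.00446 by ANOVA), 0.15 for Fgf9, -0.22 for Mapk8ip2, -0.0532 for Ndufs4, 0.11 for Chp, and 0.0439 for Rap1b. Without F344_Sal rats 3, 8, and 10 they were 0.10 for Igbp1, -0.0526 for Ndufs4, and 0.0125 for LOC366431, and without rats 8 to 12, -0.12 for Gstm7 and 0.15 for Igbp1. With 1 library left out, the ranges that crossed 0 were -0.11 to 0.0133 for Cabp1, -0.65 to 0.80 for Ntrk2, -0.00896 to 0.39 for Polr2c, -0.0300 to 0.18 for Gstm7, -0.0321 to 0.15 for Cflar, -0.41 to 0.0282 for Plch1, -0.40 to 0.0322 for Igbp1, -0.14 to 0.00969 for Wnt5a, -0.0458 to 1.38 for Gnao1, -0.0233 to 0.0627 for Ephb1, -0.22 to 0.30 for Ndufs4, -1.003 to 0.0536 for Chp, and -0.0700 to 0.0179 for LOC366431. Ranges that kept their sign but moved the value by over 1.5 times were -1.02 to -0.13 for Axin1, -0.34 to -0.0383 for Fgf9, -0.52 to -0.10 for Rap1b, -0.11 to -0.0297 for Gsr, -0.38 to -0.17 for Letm1, and 0.22 to 0.49 for Mapk8ip2. With FPKM summed per gene, Rap1b was at -1.63 and Plaa at -0.54 (p = 0.0553 by limma).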
